A study of Mus musculus with 20 samples.

Results

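De novo lipogenesis is the making of fatty acids from sugar-derived carbon, and 10 mouse genes that carry it out or accompany it were followed here in liver. The genes were Slc25a1, Acly, Acss2, Acaca, Acacb, Me1, Fasn, Elovl6, Thrsp and Pnpla3. They were chosen by symbol, with earlier results of these data known. All 10 had a probe set among the 18193 genes named by the array's annotation. Where a gene had several probe sets, the one with the highest mean log2 value was used. Livers were compared in 4 groups of 5: Scd1-/- (knockout, KO) on the very-low-fat (VLF) diet, Scd1-/- on chow, Scd1+/+ (wild type, WT) on the VLF diet, and Scd1+/+ on chow. Every liver came from an individual mouse and had 1 array. Scd1 encodes the stearoyl-CoA desaturase of liver, which turns saturated into monounsaturated fatty acids. The design set out to find expression changes particular to knockout livers on the VLF diet. The sources used here do not give strain, sex, age, feeding state or time on the diet, or say whether the deletion was limited to a cell type.

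The pathway starts in mitochondria, where citrate is formed and carried out to the cytosol by the citrate carrier Slc25a1. ATP citrate lyase (Acly) and acetyl-CoA synthetase (Acss2) give cytosolic acetyl-CoA, the acetyl-CoA carboxylases Acaca and Acacb turn it into malonyl-CoA, and fatty acid synthase (Fasn) builds palmitate from both with NADPH, part of which comes from malic enzyme (Me1). Elovl6 lengthens palmitate to stearate, the main substrate of SCD1. In liver these genes are known to be switched on together after sugar-rich meals, by the insulin-responsive factor SREBP-1c (gene Srebf1), the sugar-responsive factor ChREBP (gene Mlxipl) and the oxysterol receptor LXR (gene Nr1h3).

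Values were intensities of the Affymetrix Mouse430v2.0 array, scaled, floored at 16 and quantile-normalized. The deposited array medians lay between 32.25 and 36.58. Scd1 itself averaged 31.5 ± 3.97 in KO VLF livers, 45.9 ± 11.5 in KO chow livers, 18158 ± 1419 in WT VLF livers and 8607 ± 1597 in WT chow livers (SD, n = 5 each) and was lower in every knockout liver than in every wild-type liver. The 8 hepatocyte markers summed to 95244 to 99339 in KO VLF livers, 94992 to 99347 in KO chow livers, 96827 to 101210 in WT VLF livers and 94685 to 97999 in WT chow livers, so the markers of the labelled tissue were present in every liver. The sums do not compare amounts between groups. Quantile normalization gave Alb, the brightest marker, the same value of 24366 in every KO VLF and WT VLF liver. The ratio of the 3′ to the 5′ actin control probe sets, a sign of RNA quality, averaged 1.82 ± 0.114 (SD) in KO VLF livers, 2.25 ± 0.124 (SD) in KO chow livers, 2.19 ± 0.198 (SD) in WT VLF livers and 2.70 ± 0.238 (SD) in WT chow livers. It differed between KO VLF and WT VLF livers (exact permutation test, two-sided, p = 0.0159) and, at p = 0.00794, in each of the other comparisons of a pair of groups reported below.

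On the VLF diet all 10 genes were lower in knockout than in wild-type livers, by 1.28-fold for Slc25a1 up to 14.4-fold for Elovl6. Each passed limma's test at an adjusted p under 0.05, where 23.0% of all genes were called lower and 19.2% higher. The median log2 difference of the 10 genes was -2.09, against -0.02 over all genes. On chow none of them was called different between the genotypes. The VLF diet raised 5 of them in wild-type livers, where 0.797% of all genes were called higher, but none passed with the actin ratio as a covariate. It lowered 4 of them in knockout livers, where 17.7% of all genes were called lower. In these whole-liver samples, fewer cells of a type and less RNA per cell cannot be told apart.

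**Figure D1:**
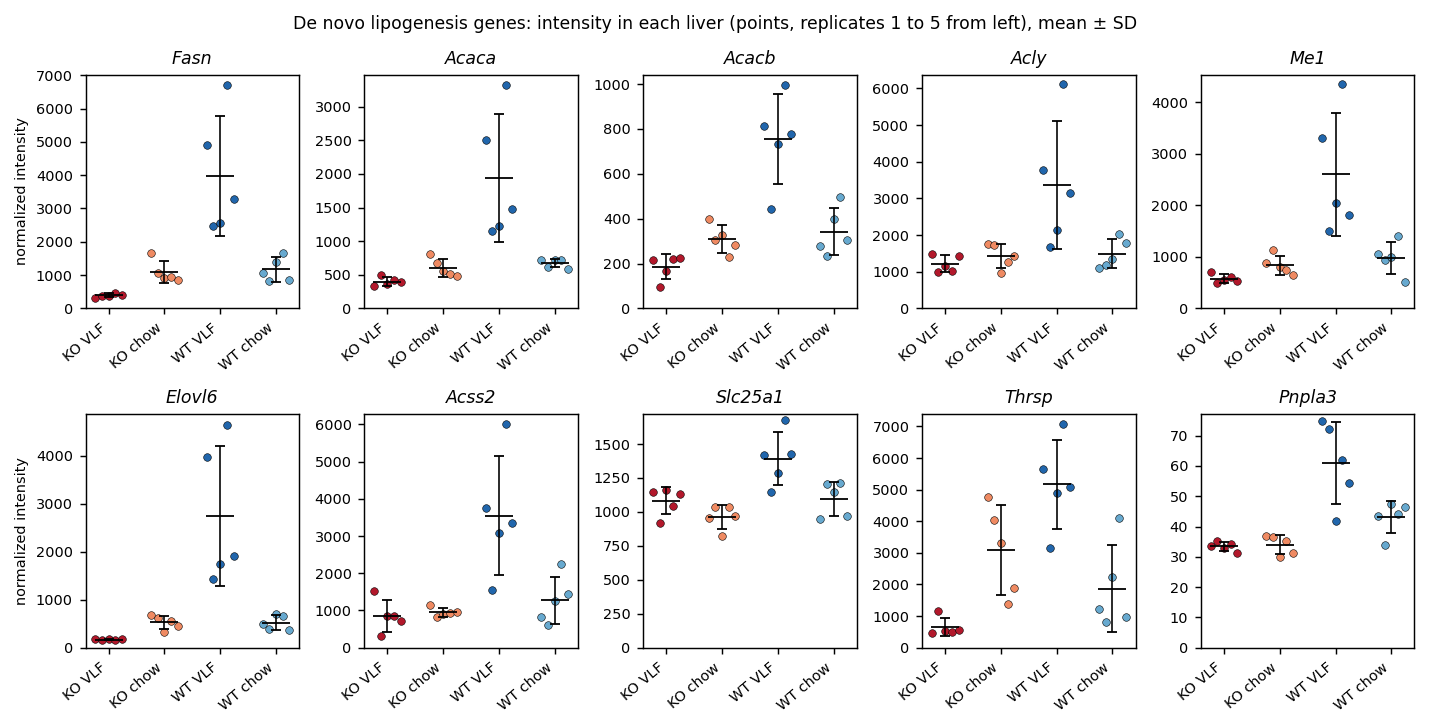
Normalized intensity (linear axis from 0) of the 10 de novo lipogenesis genes in each of 20 livers, in the order KO VLF, KO chow, WT VLF and WT chow. Points are livers, with replicates 1 to 5 from left, and bars are the mean and SD of 5 livers. WT VLF livers have the highest mean in all 10 panels, and the KO VLF points lie below every WT VLF point in all panels but that of Slc25a1, as they do for 15.6% of all genes.

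Of the genes that supply acetyl-CoA, Slc25a1 moved least. Its normalized intensity was 1149, 921, 1159.9, 1047 and 1132 in KO VLF livers, against 1416, 1149, 1290.3, 1679.5 and 1426 in WT VLF livers. On chow it was 953, 1034, 822, 1039.5 and 969.9 in KO livers, against 948, 1204, 1146, 1209.5 and 971 in WT livers. The KO VLF and WT VLF livers overlapped slightly, since the highest KO VLF liver lay just above the lowest WT VLF liver. The log2 difference between KO VLF and WT VLF livers was -0.36 (SE 0.10, adjusted p = 0.0095). That call was lost when arrays were scaled to a common median without quantile normalization (-0.24, adjusted p = 0.129) and when they were centred on the hybridization controls (-0.09, adjusted p = 0.885).

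Acly, which cleaves exported citrate, had its highest mean in WT VLF livers. It was 1488, 996, 1158, 1028 and 1425 in KO VLF livers, against 3773, 1667, 2134, 6121 and 3161 in WT VLF livers. On chow Acly was 1749.7, 1739, 974, 1254 and 1438 in KO livers, against 1108, 1188, 1360.3, 2018 and 1790.0 in WT livers. No KO VLF liver reached the lowest WT VLF liver, while the chow groups overlapped over most of their ranges. The log2 difference on the VLF diet was -1.34 (SE 0.28, adjusted p = 0.000934). Acss2, which makes acetyl-CoA from acetate, was 1523, 322, 845, 839 and 711 in KO VLF livers, against 3748, 1549, 3079.8, 5998 and 3348 in WT VLF livers. KO chow livers had 1139, 818, 911, 924 and 948, against 819, 607, 1263, 2235 and 1444 in WT chow livers. Acss2 varied more than Acly in KO VLF and WT chow livers, and its highest KO VLF liver came close to its lowest WT VLF liver without reaching it. On the VLF diet the log2 difference was -2.10 (SE 0.39, adjusted p = 0.000312).

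The acetyl-CoA carboxylases make malonyl-CoA, in the cytosol by Acaca and at the mitochondrial surface by Acacb, where malonyl-CoA is known to hold back fatty acid import for oxidation. Acaca was 334, 502, 359.7, 416 and 386 in KO VLF livers, against 2512, 1156, 1226, 3329 and 1476 in WT VLF livers. On chow it was 806, 669, 556, 515 and 480.2 in KO livers, against 714, 623, 714, 718 and 588 in WT livers. Every WT VLF liver lay above every other liver of the study for Acaca, and its log2 difference on the VLF diet was -2.16 (SE 0.24, adjusted p = 7.07e-07). Acacb was 218, 94.0, 168, 222 and 223 in KO VLF livers, against 815, 445, 734, 998 and 779 in WT VLF livers. Its chow values were 400.4, 304, 329, 228 and 282 in KO livers, against 279, 236, 396, 497 and 305 in WT livers. For Acacb the KO VLF livers were the lowest of the study, without overlap with any other group, and the log2 difference on the VLF diet was -2.05 (SE 0.26, adjusted p = 4.43e-06).

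Me1, the cytosolic malic enzyme that yields NADPH, followed the carboxylases. Its intensity was 713, 487, 542, 614 and 533 in KO VLF livers, against 3317, 1511, 2039, 4348 and 1812 in WT VLF livers. KO chow livers had 874, 1138, 795, 736 and 645, against 1053, 933, 1004, 1403 and 522 in WT chow livers. The WT VLF livers again lay above all others, and the lowest WT chow liver fell within the range of the KO VLF livers. The log2 difference of Me1 between the genotypes on the VLF diet was -2.07 (SE 0.27, adjusted p = 6.69e-06).

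Fasn and Elovl6, which build and lengthen palmitate, separated the groups most clearly. Fasn was 323, 385, 384, 475 and 409 in KO VLF livers, against 4905, 2464, 2551, 6701 and 3290.2 in WT VLF livers. On chow it was 1661, 1052, 925, 930.5 and 851 in KO livers, against 1070.1, 834, 1404, 1678 and 867 in WT livers. The 10 chow livers formed one overlapping range, with every WT VLF liver above it and every KO VLF liver below it. The log2 difference on the VLF diet was -3.23 (SE 0.26, adjusted p = 1.85e-08). Elovl6 was 172, 152, 185, 171 and 175 in KO VLF livers, against 3981, 1433, 1737, 4649.7 and 1916 in WT VLF livers. Its chow values were 681, 625, 324, 547 and 459.5 in KO livers, against 497, 399, 694, 661 and 374 in WT livers. Elovl6 showed the same 3 separate ranges, and its KO VLF livers were nearly equal, with an SD of 0.10 on the log2 scale against 0.76 in WT VLF livers. Its log2 difference on the VLF diet was -3.84 (SE 0.29, adjusted p = 7.02e-09).

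Thrsp encodes Spot 14, a nuclear and cytosolic protein known to accompany lipid synthesis, and Pnpla3 encodes a lipid droplet protein of hepatocytes induced by SREBP-1c. Thrsp was 475, 1150.1, 527, 512 and 552 in KO VLF livers, against 5661, 3161, 4888, 7062 and 5076 in WT VLF livers. On chow it was 4763, 4028, 3322, 1385 and 1889.9 in KO livers, against 1215, 808, 2249, 4112 and 962 in WT livers. Thrsp was the only one of the 10 genes whose KO chow mean stood well above its WT chow mean, but both chow groups were wide and overlapped. On the VLF diet its log2 difference was -3.05 (SE 0.42, adjusted p = 1.19e-05). Pnpla3 was 33.6, 35.3, 33.0, 34.2 and 31.2 in KO VLF livers, against 74.9, 72.2, 41.9, 61.8 and 54.2 in WT VLF livers. KO chow livers had 37.0, 36.7, 30.1, 35.1 and 31.2, against 43.4, 34.0, 47.4, 44.2 and 46.3 in WT chow livers. All knockout values of Pnpla3 lay close to the array medians, so its log2 difference of -0.84 (SE 0.13, adjusted p = 3.83e-05) is limited by background.

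The windows just before the start sites of the 3 genes with the greatest falls, Elovl6, Fasn and Thrsp, are shown with that of Slc25a1, which moved least. The sequences are the 250 bases upstream of the start in RefSeq's GRCm38.p6 annotation, written along the gene's own strand: chr3:129532136-129532385 (plus strand) for Elovl6, chr11:120824548-120824797 (minus) for Fasn, chr7:97417551-97417800 (minus) for Thrsp and chr16:17928220-17928469 (minus) for Slc25a1. Capitals mark CCAAT boxes (searched as CCAAT), GC boxes (searched as GGGCGG) and E-boxes (searched as CACGTG), read on both strands.
Elovl6: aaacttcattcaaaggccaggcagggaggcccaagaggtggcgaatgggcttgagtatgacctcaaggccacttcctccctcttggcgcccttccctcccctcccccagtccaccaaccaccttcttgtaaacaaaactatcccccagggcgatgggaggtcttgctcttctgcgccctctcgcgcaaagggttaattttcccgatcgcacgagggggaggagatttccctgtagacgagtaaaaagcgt
Fasn: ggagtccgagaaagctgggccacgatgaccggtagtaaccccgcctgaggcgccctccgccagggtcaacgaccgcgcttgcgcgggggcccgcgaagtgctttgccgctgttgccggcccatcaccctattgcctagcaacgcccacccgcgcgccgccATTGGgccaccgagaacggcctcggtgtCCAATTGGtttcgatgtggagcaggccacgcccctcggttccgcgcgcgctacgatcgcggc
Thrsp: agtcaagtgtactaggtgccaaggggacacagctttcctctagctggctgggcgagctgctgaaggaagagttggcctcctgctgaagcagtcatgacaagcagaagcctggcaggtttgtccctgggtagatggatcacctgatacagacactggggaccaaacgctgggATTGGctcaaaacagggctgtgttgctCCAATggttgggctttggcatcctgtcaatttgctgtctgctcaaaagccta
Slc25a1: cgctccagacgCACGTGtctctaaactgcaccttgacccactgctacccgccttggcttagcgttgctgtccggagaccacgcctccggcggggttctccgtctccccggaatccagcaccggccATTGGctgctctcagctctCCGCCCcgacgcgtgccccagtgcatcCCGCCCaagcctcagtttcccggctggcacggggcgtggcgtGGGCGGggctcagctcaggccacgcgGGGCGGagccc

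Fasn held CCAAT letters 3 times, of which a pair overlaps as a palindrome 62 to 55 bases before the start, and Thrsp held them 79 to 75 and 52 to 48 bases before it. Elovl6 held none of the motifs searched. Slc25a1 held CACGTG, the E-box, 239 to 234 bases before the start, a CCAAT box and GC boxes. Over the 10 genes there were 11 such windows, since Me1 has alternative starts. CCAAT stood in 63.6% of these windows and in 33.8% of all 32851 windows of the same length. GGGCGG stood in 45.5% of them, against 32.7% of all windows. CACGTG stood in 1 of them, that of Slc25a1, and in 6.02% of all windows. TCACNCCAC, a sterol regulatory element spelled as in the LDL receptor gene, was found in 0 of the 11 windows and in 1.05% of all. A match is a description of letters, and a window without one says nothing about the factor.

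On chow the genotypes were not told apart at any of the 10 genes. Of all genes 1.23% were called higher and 1.70% lower in KO chow than in WT chow livers. Of the 10 genes 0 were called by limma, and 1 (Pnpla3) had an unadjusted p under 0.05, against 4420 of all 18193 genes. The median log2 difference was -0.15, against 0 over all genes. Thrsp had the largest log2 difference, 0.85 (SE 0.42, adjusted p = 0.251), with a 95% confidence interval from -0.03 to 1.73. A second Thrsp probe set gave 1.10, with an interval from 0.16 to 2.04, and was not called by limma either (adjusted p = 0.156). For Fasn the interval of the log2 difference ran from -0.65 to 0.45, for Elovl6 from -0.60 to 0.61, and for Acly from -0.64 to 0.53. Larger differences than these were therefore outside the intervals, but smaller ones were not. Acss2 had the next widest interval after Thrsp, from -1.11 to 0.53.

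**Figure D2:**
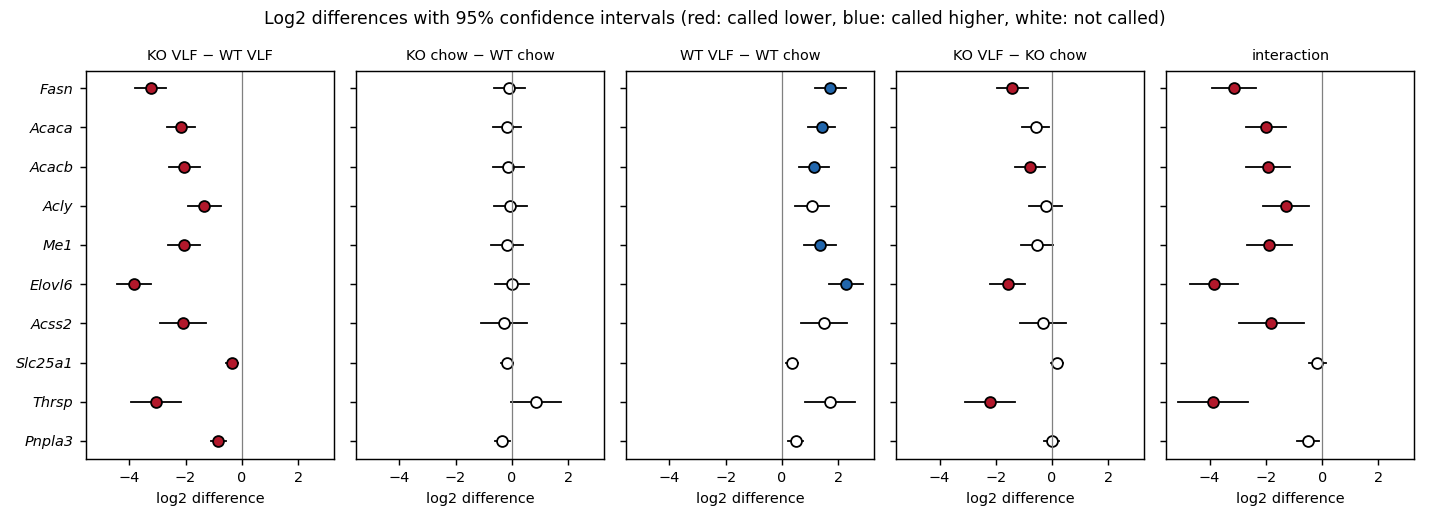
Log2 differences (x axis) of the 10 genes (rows) in 5 comparisons, with 95% confidence intervals as lines. The interaction is the knockout minus wild-type difference on VLF less that on chow. Red points were called lower, blue points called higher and white points not called by limma: all 10 genes are red between KO VLF and WT VLF livers, and all 10 are white between KO chow and WT chow livers.

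In wild-type livers the VLF diet raised 5 of the 10 genes: Elovl6, Fasn, Acaca, Me1 and Acacb. Only 0.797% of all genes were called higher and 0.781% lower in WT VLF than in WT chow livers. Elovl6 had the greatest log2 difference of all 18193 genes, 2.27 (SE 0.29, adjusted p = 0.00088). Fasn ranked 6 of 18193 by size (1.71 (SE 0.26, adjusted p = 0.00301)), Acaca ranked 12 (1.41 (SE 0.24, adjusted p = 0.00551)), Me1 ranked 14 (1.36 (SE 0.27, adjusted p = 0.0183)) and Acacb ranked 23 (1.14 (SE 0.26, adjusted p = 0.0396)). The other 5 genes had positive log2 differences without passing the test. Thrsp (1.70 (SE 0.42, adjusted p = 0.0595)) and Acss2 (1.49 (SE 0.39, adjusted p = 0.0765)) ranked 7 and 10 by size, with a wide spread between livers. The log2 difference was 1.07 (SE 0.28, adjusted p = 0.0775) for Acly, 0.48 (SE 0.13, adjusted p = 0.0809) for Pnpla3 and 0.34 (SE 0.10, adjusted p = 0.123) for Slc25a1. All 10 had an unadjusted p under 0.05, as did 2686 of all 18193 genes.

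For 4 genes, Fasn, Acaca, Me1 and Elovl6, every WT VLF liver lay above every WT chow liver, which held for 1.85% of all genes. The number called leaned on single livers: it was 3 without WT VLF liver 1 and 3 without WT VLF liver 4, and Me1 lost its call in both cases (adjusted p = 0.0607 and 0.0526). Acacb stayed called without WT VLF liver 2 or WT chow liver 4, and lost its call when any other liver of these groups was left out (adjusted p of 0.0534 to 0.124). Acly and Acss2 passed without WT VLF liver 2, Pnpla3 without WT VLF liver 3, and Acss2 and Thrsp without WT chow liver 4. The count was 0 with the actin ratio as a covariate, where Elovl6 kept a log2 difference of 1.99 (SE 0.44, adjusted p = 0.198) and Fasn one of 1.46 (SE 0.40, adjusted p = 0.361). The actin ratio of each WT VLF liver was below that of each WT chow liver.

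In knockout livers the same diet lowered 4 of the 10 genes, Thrsp, Elovl6, Fasn and Acacb. Of all genes 17.7% were called lower and 17.0% higher in KO VLF than in KO chow livers. The log2 difference was -2.20 (SE 0.42, adjusted p = 0.000436) for Thrsp, -1.58 (SE 0.29, adjusted p = 0.000302) for Elovl6, -1.42 (SE 0.26, adjusted p = 0.000331) for Fasn and -0.78 (SE 0.26, adjusted p = 0.0298) for Acacb. The median over the 10 genes was -0.55. In these 4 genes every KO VLF liver lay below every KO chow liver, as for 13.0% of all genes. The Acacb call was lost without KO VLF liver 2 (-0.56, adjusted p = 0.0856), the lowest of its group, and also without KO VLF liver 3 or KO chow liver 1, 2 or 3 (adjusted p of 0.0528 to 0.0829). Acaca (-0.59 (SE 0.24, adjusted p = 0.0761)) and Me1 (-0.52 (SE 0.27, adjusted p = 0.192)) did not pass. Acly, Acss2, Slc25a1 and Pnpla3 had log2 differences between -0.32 and 0.17 that did not pass either.

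**Figure D3:**
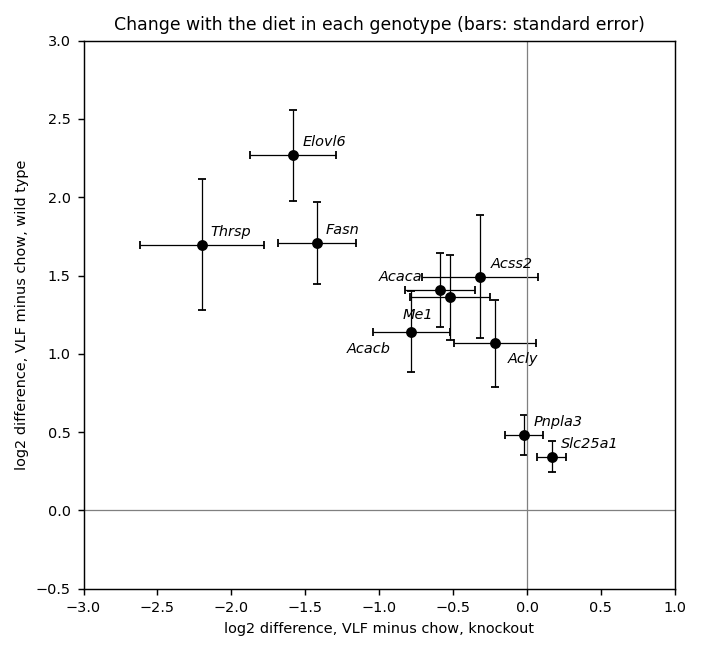
Log2 difference between VLF and chow in knockout livers (x axis) against that in wild-type livers (y axis), 1 point per gene, bars are standard errors. All points but that of Slc25a1 lie in the upper left area, that of Pnpla3 almost on its edge, and Thrsp, Elovl6 and Fasn lie farthest from both axes.

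The diet estimates had opposite signs in the genotypes for 9 of the 10 genes, the exception being Slc25a1. Some of these signs are uncertain. The knockout estimates of Pnpla3 (-0.02, SE 0.13), Acly (-0.22, SE 0.28) and Acss2 (-0.32, SE 0.39) were within their errors and turned positive under other settings. The second Me1 probe set gave 0.007 there. The share of all genes with opposite signs was not counted. The difference between genotypes in the diet change was tested by the interaction, the knockout minus wild-type difference on VLF less that on chow. It was called negative for 8 of the 10 genes, where 12.1% of all genes were called negative and 12.1% positive. The median interaction was -1.90 on the log2 scale, against 0 over all genes. The log2 interaction was -3.90 (SE 0.59, adjusted p = 8.39e-05) for Thrsp and -3.85 (SE 0.41, adjusted p = 1.76e-06) for Elovl6. These were the 12th and 14th most negative of 18193 genes. It was -3.13 (SE 0.37, adjusted p = 5.80e-06) for Fasn, -1.99 (SE 0.33, adjusted p = 0.000214) for Acaca, -1.92 (SE 0.37, adjusted p = 0.000751) for Acacb and -1.88 (SE 0.38, adjusted p = 0.00138) for Me1. The genes that give acetyl-CoA were nearer the threshold, with -1.81 (SE 0.55, adjusted p = 0.0267) for Acss2 and -1.28 (SE 0.40, adjusted p = 0.0283) for Acly. The Acss2 call was lost without WT VLF liver 4 or WT chow liver 1 or 2 (adjusted p of up to 0.0535), and the Acly call without KO chow liver 1 or 2, WT VLF liver 1, or WT chow liver 1 or 2 (up to 0.0548). Pnpla3 (-0.50 (SE 0.18, adjusted p = 0.0642)) and Slc25a1 (-0.18 (SE 0.14, adjusted p = 0.561)) did not pass.

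KO VLF livers were also set against wild-type livers on chow. Relative to WT chow livers, KO VLF livers were lower in 7 of the 10 genes, where 28.9% of all genes were called lower and 20.5% higher. Elovl6 (-1.58 (SE 0.29, adjusted p = 0.000252)), Fasn (-1.52 (SE 0.26, adjusted p = 0.000134)) and Thrsp (-1.35 (SE 0.42, adjusted p = 0.0149)) had the largest log2 differences. The place of Elovl6 rests on its brightest probe set, since the second gave -0.48 (adjusted p = 0.293) and was not called. Acacb (-0.91 (SE 0.26, adjusted p = 0.00878)), Acaca (-0.76 (SE 0.24, adjusted p = 0.0149)), Me1 (-0.71 (SE 0.27, adjusted p = 0.0444)) and Pnpla3 (-0.35 (SE 0.13, adjusted p = 0.0332)) were lower by smaller log2 differences. Acly (-0.27), Acss2 (-0.61) and Slc25a1 (-0.02) did not pass, so the knockout values of the acetyl-CoA supply genes on the VLF diet were not told apart from those of WT chow livers. When the 10 livers were left out 1 at a time, Me1 lost its call in 8 cases and Pnpla3 in 7. The count was 2 when arrays were centred on the hybridization controls, 4 with a common median alone or with values as deposited, and 0 with the actin ratio as a covariate. All these comparisons share groups with one another.

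Ordered by group mean, WT VLF livers came first for every gene. For Fasn, Acaca, Acacb, Acly, Me1, Acss2 and Pnpla3 they were followed by WT chow, KO chow and KO VLF livers, and for Elovl6 and Thrsp by KO chow, WT chow and KO VLF livers. Slc25a1 alone had KO chow livers lowest. The middle groups of each order overlapped for all 10 genes. For Fasn and Elovl6 the first and the last group were both separate from their neighbours. The shares of all genes with such orders were not counted. Taken singly, 1.85% of all genes lay wholly higher in WT VLF than in WT chow livers. A share of 13.0% lay wholly lower in KO VLF than in KO chow livers. Most genes overlapped between the chow groups, where 446 of 18193 were wholly higher and 667 wholly lower in knockout livers.

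By the median over the 10 genes, the spread between livers of one group was widest in WT VLF livers. There the SD of log2 values had a median of 0.63 over the 10 genes, against 0.12 over 6317 other genes of mean log2 of at least 7. The same medians were 0.22 and 0.15 in KO VLF livers, 0.31 and 0.13 in KO chow livers, and 0.42 and 0.14 in WT chow livers. WT VLF liver 4 was the highest of its group in 9 of the 10 genes and liver 2 the lowest in 9. WT chow liver 4 was the highest of its group in 8 genes, and KO chow liver 1 in 8. In KO VLF livers, liver 2 was the lowest in 6 genes but the highest in 3, among them Thrsp and Acaca. Acss2 was the gene that varied most within KO VLF livers, 4.74-fold between liver 1 and liver 2.

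**Figure D4:**
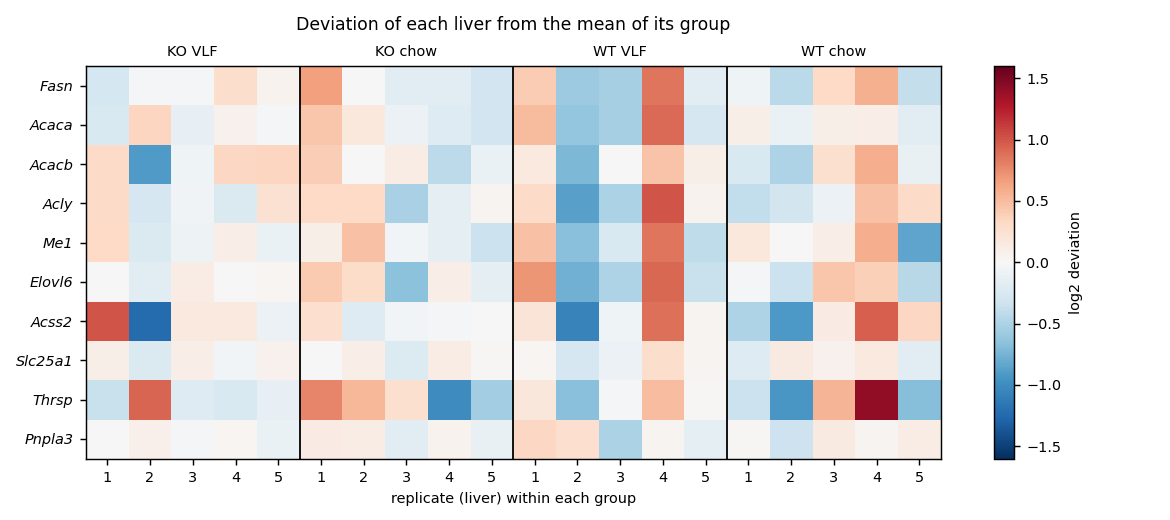
Deviation of each liver (columns, 5 per group) from its group mean, on the log2 scale, for the 10 genes (rows). Red is above and blue below the group mean. The columns of WT VLF livers 1 and 4 are red and that of liver 2 is blue in nearly all rows, while the KO VLF columns are pale except in Acss2, Thrsp and Acacb.

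After the group means were removed, 44 of 45 pairs of genes had a positive Pearson correlation over the 20 arrays, with a median of 0.54. Within the groups of 5 livers this did not hold for all: 22 of 45 pairs had a positive sign among KO VLF livers, and 41 of 45 in each of the KO chow, WT VLF and WT chow groups. The pooled correlations ran from -0.05 for Slc25a1 and Pnpla3 to 0.87 for Fasn and Elovl6. Fasn with Acaca had 0.87 and Acacb with Acss2 had 0.86. The 6317 other genes had a median of -0.01 with Fasn. These are descriptions of 20 arrays that share 1 normalization. Across all 20 arrays, Elovl6 (0.97) and Fasn (0.96) were the most like the mean of the other 9 genes, and Slc25a1 (0.73), Thrsp (0.77) and Pnpla3 (0.80) the least.

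The non-member genes most like the mean standardized log2 value of the 10 genes, over the same 20 arrays, were Tmem135 (Pearson r = 0.96), Gpam (0.94), Tlcd1 (0.93), Elovl5 (0.92), Rflna (0.91), Dhrs7 (0.91), Pgrmc2 (0.91) and Secisbp2l (0.90), out of 6317 compared. These correlations include the differences between groups. Gpam encodes the mitochondrial glycerol-3-phosphate acyltransferase, the first step of glycerolipid synthesis, and averaged 1507 in KO VLF livers, 1798 in KO chow livers, 2697 in WT VLF livers and 1869 in WT chow livers. Elovl5, an elongase of polyunsaturated fatty acids, averaged 4044 in KO VLF livers, 4141 in KO chow livers, 10196 in WT VLF livers and 5091 in WT chow livers. Tmem135, which was most like the 10 genes, changed less than most of them, with a log2 difference of -0.60 between KO VLF and WT VLF livers and 0.40 between WT VLF and WT chow livers.

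Other probe sets of the same genes that lay above the floor gave the same sign between KO VLF and WT VLF livers, often with a smaller size. The 10 genes had 24 probe sets, of which 3 of Acly were at the floor on all arrays. A dimmer Acaca probe set gave a log2 difference of -0.51 and a dimmer Acacb probe set -0.30, beside -2.16 and -2.05 for the brightest. A second Thrsp probe set gave -3.32 and a second Elovl6 probe set -2.85 in log2. The third probe sets of these genes gave -0.78 for Thrsp and -0.59 for Elovl6. The third Thrsp probe set had an interaction of -0.73, beside -3.90 for the brightest. Between WT VLF and WT chow livers it gave a log2 difference of 0.03, beside 1.70. The second Me1 probe set gave a log2 difference of -1.22 between KO VLF and WT VLF livers, with an interaction of -0.93 (SE 0.41) that did not pass (adjusted p = 0.145). It also lost the call between WT VLF and WT chow livers (log2 difference 0.94, adjusted p = 0.142) and that between KO VLF and WT chow livers (-0.28, adjusted p = 0.548). The second Acss2 probe set had an interaction of -1.62 that did not pass (adjusted p = 0.0803). Each dimmest probe set of Acaca, Acacb, Acss2 and Elovl6 lost 1 or more of the calls of its brightest in the other comparisons. Fasn, Slc25a1 and Pnpla3 had 1 probe set each.

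The pathway around the 10 genes was read from 6 lists, chosen with earlier results of these data known. They held 51 genes above the floor on at least 1 array. Between KO VLF and WT VLF livers 29 of them fell, 10 rose and 12 did not pass, against 23.0% and 19.2% of all genes, and their median log2 difference was -0.35. These counts include Pnpla5 among those that fell and Prkaa1 among those that rose, which lay at the floor on 10 and 14 of the 20 arrays and differed by -0.20 and 0.11 in log2. Between KO chow and WT chow livers 1 of the 51 fell, against 1.70% of all genes: Ppp2r5a, a subunit of protein phosphatase 2A. Between WT VLF and WT chow livers 6 rose and none fell, against 0.797% and 0.781% of all genes.

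Among 10 transcription factors and regulators, 7 were lower and 1 was higher in KO VLF than in WT VLF livers. Of all genes 23.0% were called lower and 19.2% higher. The median log2 difference of the 10 regulators was -0.55. Srebf1 averaged 606 ± 178 in KO VLF livers, 1399 ± 217 in KO chow livers, 2271 ± 435 in WT VLF livers and 1521 ± 210.1 in WT chow livers. Its log2 difference was -1.93 (SE 0.17, adjusted p = 4.33e-08) between genotypes on the VLF diet and -1.24 (SE 0.17, adjusted p = 1.16e-05) with the diet in the knockout. Mlxipl averaged 248 ± 44.7 in KO VLF livers, 691 ± 161 in KO chow livers, 794 ± 125 in WT VLF livers and 867 ± 83.1 in WT chow livers. Its log2 difference on the VLF diet was -1.68 (SE 0.16, adjusted p = 1.38e-07). Nr1h3 (-0.75 (SE 0.07, adjusted p = 2.21e-07)) and Scap (-0.82 (SE 0.09, adjusted p = 4.68e-07)), the escort protein of SREBPs, had negative log2 differences as well. Trib3, a stress-induced pseudokinase, rose by a log2 difference of 1.24 (SE 0.18, adjusted p = 2.60e-05). None of the 10 regulators was called between WT VLF and WT chow livers, where Srebf1 had a log2 difference of 0.57 (SE 0.17, adjusted p = 0.125).

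Of 9 genes of carbon and NADPH supply, 6 fell and 1 rose between KO VLF and WT VLF livers. Over all genes 23.0% fell and 19.2% rose. Pklr, the liver pyruvate kinase and a known ChREBP target, followed the lipogenic pattern, with a log2 difference of -1.36 (SE 0.21, adjusted p = 4.64e-05) in this comparison and 1.36 (SE 0.21, adjusted p = 0.00323) with the diet in wild type. Idh1, which yields cytosolic NADPH, had a log2 difference of -0.60 (SE 0.07, adjusted p = 3.45e-06), and Mdh1, the cytosolic malate dehydrogenase, one of -0.51 (SE 0.07, adjusted p = 1.61e-05). Opposite to Me1, Pgd, an NADPH-forming enzyme of the pentose phosphate pathway, rose between KO VLF and WT VLF livers. It averaged 2828 ± 505 in KO VLF livers, 437 ± 66.8 in KO chow livers, 894 ± 347 in WT VLF livers and 373 ± 57.4 in WT chow livers. Its log2 difference was 1.72 (SE 0.20, adjusted p = 1.72e-06) between KO VLF and WT VLF livers and 1.20 (SE 0.20, adjusted p = 0.00568) between WT VLF and WT chow livers. In that last comparison Me1 rose too. G6pdx was not analysed here.

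Of 10 paralogs and partners above the floor on at least 1 array, 5 fell and 3 rose between KO VLF and WT VLF livers. The shares over all genes were 23.0% and 19.2%. Mid1ip1, the paralog of Thrsp whose protein is known to promote polymers of acetyl-CoA carboxylase, averaged 147 ± 14.3 in KO VLF livers, 525 ± 157 in KO chow livers, 626 ± 180.3 in WT VLF livers and 634 ± 122 in WT chow livers, with a log2 difference of -2.05 (SE 0.23, adjusted p = 1.06e-06). Among the elongases that act beside Elovl6, Elovl2 (-1.61 (SE 0.14, adjusted p = 3.15e-08)) and Elovl5 (-1.36 (SE 0.14, adjusted p = 5.01e-07)) fell. Elovl1, an elongase of very long chains, rose by a log2 difference of 0.69 (SE 0.08, adjusted p = 2.50e-06). Me2, the mitochondrial malic enzyme, rose by a log2 difference of 0.66 (SE 0.11, adjusted p = 0.000134), opposite in sign to Me1, and Pnpla2, the main triglyceride lipase, by one of 0.60 (SE 0.13, adjusted p = 0.00116). Acss1 was at the floor on all arrays, and Acss3 was not analysed here.

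Of 8 genes of malonyl-CoA use and control, 3 fell and 2 rose between KO VLF and WT VLF livers. For this list and the others of this paragraph, the shares over all genes were 23.0% lower and 19.2% higher. Mlycd, which degrades malonyl-CoA, had a log2 difference of -0.86 (SE 0.07, adjusted p = 2.01e-08) and Ppp2r5a one of -1.08 (SE 0.06, adjusted p = 6.62e-11). Subunits of the AMP-activated kinase, which inhibits the carboxylases, went both ways. Prkab2 had a log2 difference of 0.70 (SE 0.14, adjusted p = 0.000693), from dim means of 47.9 in KO VLF and 28.8 in WT VLF livers. The catalytic subunit Prkaa2 was brighter, at 484 against 666, and had a log2 difference of -0.46 (SE 0.11, adjusted p = 0.00214). Prkab1 (-0.35) and Prkag1 (-0.15) were not called, and the rise of Prkaa1 lay near the floor. The separate fatty acid synthesis of mitochondria, which serves lipoic acid, had 4 of 6 genes lower and 1 higher, led by Oxsm (-0.73 (SE 0.09, adjusted p = 2.84e-06)), Ndufab1 (-0.43 (SE 0.06, adjusted p = 1.63e-05)) and Lipt1 (-0.69 (SE 0.11, adjusted p = 5.57e-05)). Of 8 genes of the steps that follow palmitate, 4 fell and 2 rose. Dgat2, which makes triglyceride, averaged 1015 ± 146 in KO VLF livers, 3014 ± 407 in KO chow livers, 3352 ± 108 in WT VLF livers and 3052 ± 272 in WT chow livers, with a log2 difference of -1.73 (SE 0.10, adjusted p = 2.15e-10). Scd2, the related desaturase, averaged 213 ± 68.0 in KO VLF livers, 47.9 ± 17.3 in KO chow livers, 61.7 ± 27.6 in WT VLF livers and 39.2 ± 11.5 in WT chow livers, with a log2 difference of 1.84 (SE 0.32, adjusted p = 0.000137). Acsl1 was not analysed here.

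**Figure D5:**
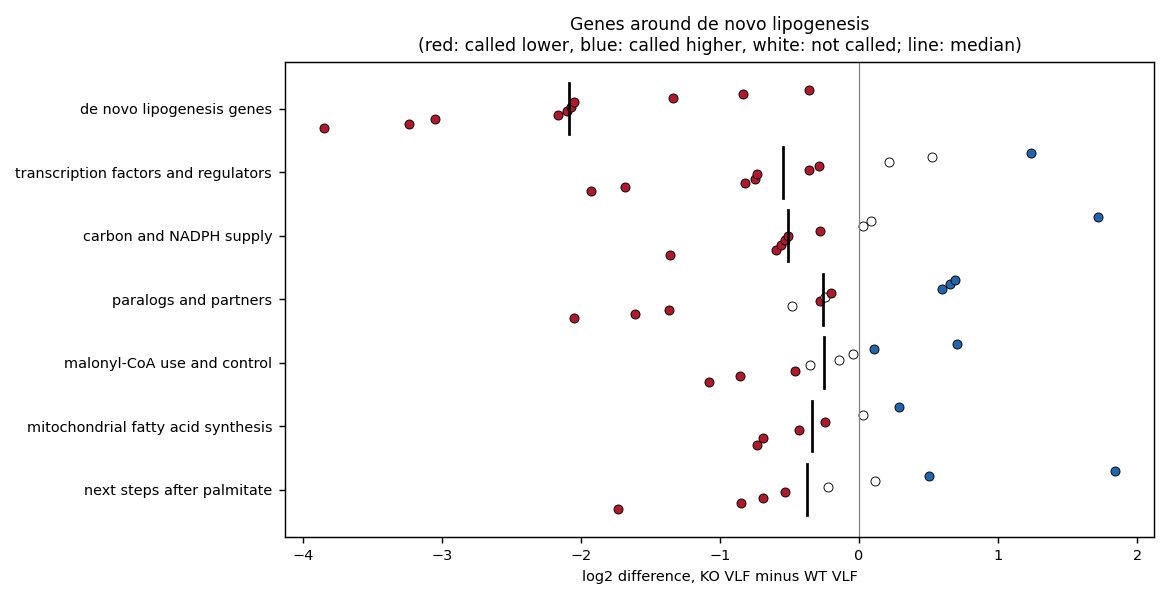
Log2 difference between KO VLF and WT VLF livers (x axis), 1 point per gene, for the 10 de novo lipogenesis genes (top row) and 6 lists of surrounding genes. Red points were called lower, blue higher and white not called by limma, and the vertical bar in each row is its median. The medians are -2.09 in the top row and between -0.55 and -0.25 in the 6 lists.

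Markers of some other cell types moved with the same group of livers. The 7 macrophage and Kupffer cell markers summed to 12619 to 16312 in KO VLF livers, 4077 to 5729 in KO chow livers, 3516 to 4155 in WT VLF livers and 4166 to 4531 in WT chow livers, and all 7 rose between KO VLF and WT VLF livers. The 4 stellate cell markers summed to 3750 to 4537 in KO VLF livers and 2002 to 2355 in KO chow livers. They summed to 1772 to 2232 in WT VLF livers and 1951 to 2180 in WT chow livers, mostly through Dcn. Between KO VLF and WT VLF livers 2 of these 4 rose and 1 fell. Lrat averaged 145 in KO VLF livers against 204 in WT VLF livers, and Des 73.8 against 76.9. The 5 adipocyte markers matched, cells that also express lipogenic genes, summed to 639 to 1178 in KO VLF livers, 301 to 408 in KO chow livers, 293 to 362 in WT VLF livers and 299 to 449 in WT chow livers. Adipoq was at the floor on all 20 arrays, and the sum in KO VLF livers was mostly Fabp4, which adipocytes and macrophages both express. Fabp4 averaged 736 in KO VLF livers against 174 in WT VLF livers, and Cidec 63.7 against 16.8. Retn averaged 80.3 against 102. Which cells these signals came from was not tested. Hepatocyte markers had 3 of 8 lower and 0 higher in KO VLF than in WT VLF livers. In the same comparison 2 of the 5 adipocyte markers rose and 1 fell. Of 4 endothelial markers 1 rose and 2 fell, and of 4 cholangiocyte markers 1 rose. Among 3 lymphocyte markers 1 fell, as did the pancreas marker Cela1 and the blood marker Alas2. The shares over all genes, to set beside every marker count, were 19.2% higher and 23.0% lower. The part of cell composition in the differences of the 10 genes was not tested.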

How the data were processed

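RNA of 20 mouse livers was measured on the Affymetrix Mouse430v2.0 array, 1 array per liver, from biotinylated cRNA per the labels' protocols. The values deposited by the authors are intensities on a linear scale, as judged from the numbers themselves. The submitters' processing notes name MAS5 and RMA, and the sources used here do not say which of them made the values or name a genome build.

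Each array was scaled to the same median, values under 16 were set to 16, and log2 values were quantile-normalized. The 64 control probe sets were left out, and of the remaining 45037 a share of 9114 lay at the floor on all arrays and counted as unchanged. limma 3.58.1 in R 4.3.3 estimated group means from all 20 arrays. P-values were adjusted by Benjamini-Hochberg over these 45037 probe sets, and a call is an adjusted p under 0.05. Groups came from the sample titles, with 5 livers in each, and the small number of arrays limits the precision. Probe sets that name several genes (932) were left out, 1 of them an Acss2 probe set, and fold changes of genes at the floor are lower bounds. Levels of different genes were not compared, since probe sets differ in brightness. Replicate numbers did not pair livers: same-numbered livers of different groups had deviations correlated between -0.21 and 0.24, over 0.1 in 8 of 30 pairs. The labels name no batch.

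The 10 genes, the 6 pathway lists and the marker lists were chosen with earlier results of these data known. Named genes were the 10 genes, called list genes with the 3 smallest adjusted p-values per list and comparison, and the 8 genes most like the 10. Some genes outside that rule, such as Pnpla2, Me2, Trib3 and the markers, were named after their values were seen. Alternatives changed the normalization, floor, filter, probe set choice, model, covariate and arrays used. The fitting code was run on simulated data with independent noise per probe set and known shifts in KO VLF arrays. That run checks the code only, since it lacks the correlation between genes seen in these livers. Promoter windows are from RefSeq, build GRCm38.p6. Python 3.11.15 with matplotlib 3.10.9 drew the figures.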

Additional observations from a re-analysis of the deposited data

Results flagged for a closer look

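Among 40 gene-by-group sets of 5 livers, 2 held a liver far from its group. Thrsp was 1150.1 in KO VLF liver 2, above the other 4 livers of the group. Pnpla3 was 34.0 in WT chow liver 2, below the other 4. Chance marks about 1 in 20 such groups.

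The change with the diet differed between knockout and wild type in 8 genes, tested by the interaction term of limma with adjusted p-values given above. The log2 interactions were -3.13 for Fasn, -1.99 for Acaca, -1.92 for Acacb, -1.28 for Acly, -1.88 for Me1, -3.85 for Elovl6, -1.81 for Acss2 and -3.90 for Thrsp.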

How the results depend on the processing

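No value changed sign after being called under any alternative. All 10 genes kept a negative difference between KO VLF and WT VLF livers in every setting run, with 9 or 10 called. Slc25a1 lost its call there with a common median alone and with hybridization controls, and Pnpla3 was not fitted among probe sets of mean log2 of at least 6. None was called on chow in any setting. The number raised by the diet in wild type was 5, and became 8 with that filter on dim probe sets, 2 with only the groups compared, 9 with array weights, 0 with the actin ratio as a covariate and 3 to 7 when 1 array was left out. The number lower in KO VLF than in WT chow livers was 7, and became 4 with a common median alone, 2 with hybridization controls, 4 with values as deposited and 0 with the actin ratio; it was 5 to 6 when 1 array was left out. Between KO VLF and KO chow livers 3 to 6 were called, and for the interaction 6 to 9. With hybridization controls as the centre, all genes had a median log2 difference of 0.27 between KO VLF and KO chow livers, where Slc25a1 then rose by 0.54 (adjusted p = 0.00424), and a median of 0.27 in the interaction, where Acss2 lost its call (adjusted p = 0.0553). The causes of these shifts were not tested. With the replicate block, 10 genes were called between KO VLF and WT VLF livers and 6 with the diet in wild type, where Acss2 passed (1.49, adjusted p = 0.0223); no other call changed. Dim signal limits Pnpla3, which lay near the array medians.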
